A study of Mus musculus with 13 samples.

Results

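The genes described here are those of the proteasome, the protease complex that degrades proteins tagged with ubiquitin. They were taken from the nuclear count table by symbol, as Psm followed by one of the letters a to g and a number, with the 3 immunoproteasome genes Psmb8, Psmb9 and Psmb10 and the symbols of named pseudogenes left out. A gene was kept with 10 or more counts in at least 4 of the 13 libraries. Of 43 such symbols 41 were kept, out of 29700 genes in the table, and Psma8 and Psmb11 fell below the minimum with at most 5 counts in any library. All 41 genes passed the filter of the test. Psmd4, Psmd6 and Psme3 had no entry under these symbols in the nuclear count table and could not be analysed. The regulatory particle genes below therefore lack Psmd4 and Psmd6.

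RNA was sequenced from 1 retina per mouse in 3 groups. The first group held 5 Rpe65-/- mice labelled as of C57BL/6J background that received TMB, a combination of tamsulosin, metoprolol and bromocriptine, in their chow from postnatal day 22 to collection on day 64. Tamsulosin blocks alpha-adrenergic receptors, metoprolol blocks beta-adrenergic receptors and bromocriptine activates dopamine receptors. The second group held 4 Rpe65-/- mice of the same labelled background kept on the base diet to day 64 and is called vehicle. The third group held 4 C57BL/6J wild-type mice of 2 months on the same base diet. Rpe65 encodes the retinoid isomerase of the pigment epithelium. By the study, mice without it have no cone function and lose cones quickly. Their rod responses are weak, and rods are lost slowly. They model the human disease Leber congenital amaurosis. The study's reporting summary calls the exact background of the Rpe65-/- line unknown and probably mostly C57BL/6J. Libraries are called by group, the letter of the labelled sex and a number.

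Libraries held 13677803 to 16179633 counts in TMB, 13785109 to 16408151 in vehicle and 13512155 to 16449989 in wild type. As a floor 3 counts were used, an approximate upper limit of the expected count where 0 is observed. This floor corresponded to 0.182 to 0.222 CPM, the counts scaled to the size of the library. Rpe65 itself had 0 to 7 counts in TMB and 1 to 8 in vehicle libraries, against 72 to 226 in wild type. The summed level of 10 photoreceptor markers was 56018 to 61951 CPM in TMB, 57692 to 66849 in vehicle and 61344 to 78336 in wild-type libraries. 10 pigment epithelium markers summed to 557 to 627 CPM in TMB and 549 to 971 in vehicle, against 383 to 489 in wild type, and 9 microglia markers to 39.3 to 48.1 and 45.7 to 58.3, against 27.5 to 34.0. Wild type F4 was the highest wild-type library for the photoreceptor, pigment epithelium and microglia lists. Of further lists, 7 Mueller glia markers summed to 4187 to 4700 CPM in TMB and 4304 to 6226 in vehicle, against 3514 to 4325 in wild type, where F4 was the highest. 4 lens markers summed to 3.87 to 65.0 CPM in TMB and 2.04 to 896 in vehicle, against 1.34 to 374 in wild type, again with F4 the highest, and 5 erythrocyte markers to at most 20.8 CPM in any library. The pigment epithelium list holds Rpe65 itself and shares Rlbp1 with the Mueller glia list, and its highest sum of 971 CPM was in vehicle F2. The part of these cell types in the results below was not tested, and in whole retina fewer cells of a type and less RNA per cell cannot be told apart. The mean deviation of the most GC-rich genes (the upper 20% of genes) was -0.19 to 0.13 on the log2 scale in TMB libraries and 0.12 to 0.33 in vehicle libraries. Wild type F4 stood apart from the other wild-type libraries, with 0.28 against -0.49 to -0.33 in the others. Vehicle F2, labelled female, had 0.0659 CPM of Xist and 92.2 CPM of the Y-linked Eif2s3y. The labels do not give the relation between animals beyond 1 retina per mouse, so p values measure the spread between these mice.

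As background, the core particle of the proteasome is a stack of rings in which outer alpha rings form a gate and inner beta rings hold the proteolytic sites. The sites are carried by Psmb5 (chymotrypsin-like activity), Psmb6 (caspase-like activity) and Psmb7 (trypsin-like activity). A regulatory particle caps the core, and in it a ring of Psmc ATPases unfolds the substrate while Psmd subunits bind and remove ubiquitin. Photoreceptors renew large amounts of protein, and the proteasome is part of protein quality control in these cells. The 41 genes comprised 14 of the core particle (7 alpha and 7 beta), 15 of the regulatory particle (6 ATPases and 9 other subunits), 3 chaperones of regulatory particle assembly (Psmd5, Psmd9 and Psmd10), 4 chaperones of core assembly (Psmg1 to Psmg4), and 5 activators or inhibitors (Psme1, Psme2, Psme2b, Psme4 and Psmf1).

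The 14 core and 15 regulatory genes kept were expressed in retinas of all 3 groups. Per length of the longest transcript, as RPKM (CPM divided by the length in kilobases) averaged over all 13 libraries, the median level was 55.1 for the ATPases, 50.6 for alpha, 43.9 for beta and 40.0 for the other regulatory subunits. The assembly chaperones had lower medians, of 11.8 RPKM for the core and 10.1 for the regulatory particle, with up to 17.1 (Psmg2) and 16.1 (Psmd5), and activators and inhibitors had a median of 13.3. Psmc5, an ATPase of the base ring, was the highest at 77.3 RPKM, followed by Psmb4 at 73.7 and the catalytic subunit Psmb6 at 70.6. The levels of Psmb4 and Psmb6 were not apart beyond their spread over libraries (SD 13.75 and 12.03, n = 13). Psme2b, a copy of the activator subunit Psme2, was the lowest at 0.75 RPKM, and Psme2 and Psme2b share 59.3% and 69.3% of their sequence in stretches of 50 bases, so that the split of reads between them is uncertain. Among the catalytic subunits Psmb5 (21.4) and Psmb7 (15.3) were below Psmb6. Levels and their order depended on the transcript used for the length. With the longest coding transcript Psmb6 was the highest at 85.5 RPKM, above Psmc5 at 81.9 and Psmb4 at 73.7, and Psmb3 was at 72.7 (36.9 with the longest transcript), Psmc2 at 45.0 (23.2) and Psmb7 at 37.6 (15.3).

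The summed level of the 41 genes was 2645 ± 104 CPM in TMB, 2687 ± 54 in vehicle and 2800 ± 84 in wild-type retinas (SD, n = 5, 4 and 4). The spread of a gene within a group was small at the median but not for each gene. The median coefficient of variation over the 41 genes was 6.29% in TMB, 4.68% in vehicle and 11.2% in wild type, and 6.46% in wild type without F4. The highest was that of Psme2b, with 48.8% in TMB, 50.2% in vehicle and 53.3% in wild type. F4 lay outside the range of the other wild-type libraries for 32 of the 41 genes (78.0%), as it did for 78.4% of all genes tested. It was nearer to the vehicle mean than to the mean of the other wild-type libraries for 28 of 41 (68.3%, against 72.2% of all genes), among them 13 of 15 regulatory and 7 of 14 core genes. The numbers of members called against wild type are therefore given with and without it, and fold changes without it for some members only.

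The first comparison asked which proteasome genes differ in the retina of Rpe65-/- mice on vehicle. 9 of 41 genes were called at an adjusted p under 0.05, 2 higher and 7 lower in vehicle, which is 21.95% of the genes against 33.9% of all 16782 genes tested (15.7% higher and 18.3% lower). The median log2 fold change of the 41 genes was -0.0017, against 0.0166 over all genes tested. Tests were edgeR quasi-likelihood tests with Benjamini-Hochberg adjustment over all genes, and fold changes are log2 values ± SE. At an unadjusted p under 0.05 there were 13 of 41 (31.7%), against 47.4% of all genes. In the regulatory particle 2 of 15 genes were higher and 4 lower, and in the core particle 0 of 14 were higher and 2 lower.

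Among the ATPases, Psmc6 was lower in vehicle. It had 116.71, 130.00, 121.44 and 120.65 CPM in vehicle F1, F2, M4 and M5, against 204.48, 198.55, 214.80 and 129.07 in wild type M1, M2, F3 and F4. Wild type F4 lay within the vehicle range, far below the other wild-type libraries, and without it the groups did not overlap. The log2 fold change was -0.61 ± 0.14 (adjusted p = 0.0072) and -0.75 without F4. Psmc6 lost its call after removal of the trend with GC content that is described below (-0.10, adjusted p = 0.27). Psmc4, another ATPase of the same ring, was higher in vehicle by 0.30 ± 0.10 (adjusted p = 0.032). It had 83.06, 81.88, 83.84 and 81.32 CPM in vehicle F1, F2, M4 and M5, against 59.88, 66.48, 57.55 and 84.18 in wild type M1, M2, F3 and F4. Here too F4 reached beyond the vehicle range and the other wild-type libraries stayed below it. The other 4 ATPases Psmc1, Psmc2, Psmc3 and Psmc5 had log2 fold changes between -0.07 and 0.09 and were not called.

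Among the other regulatory subunits, Psmd12, a subunit of the lid, was lower in vehicle in each fit made. It had 55.88, 49.51, 51.43 and 54.25 CPM in vehicle F1, F2, M4 and M5, against 76.90, 73.65, 69.65 and 56.82 in wild type M1, M2, F3 and F4. The groups did not overlap, though F4 was only just above vehicle F1. The log2 fold change was -0.39 ± 0.10 (adjusted p = 0.0092), -0.47 without F4, and -0.34 with the GC trend removed (adjusted p = 0.0050). Psmd12 was called in 14 of 14 other settings and in 13 of 13 fits that left out 1 library. Psmd1, the large scaffold subunit of the base, was lower (log2 fold change -0.33 ± 0.10, adjusted p = 0.022), with 115.83, 126.81, 106.43 and 109.06 CPM in vehicle F1, F2, M4 and M5 and 154.81, 153.24, 149.55 and 117.28 in wild type M1, M2, F3 and F4. Psmd14, the deubiquitinase of the lid, was lower (-0.26 ± 0.08, adjusted p = 0.025), with 53.67 to 58.49 CPM in vehicle and 59.83 to 72.34 in wild type. Psmd3, another lid subunit, was higher by 0.41 ± 0.13 (adjusted p = 0.025). It had 102.45, 106.47, 102.43 and 100.92 CPM in vehicle F1, F2, M4 and M5, against 68.31, 75.96, 62.43 and 104.17 in wild type M1, M2, F3 and F4. Psmd2, Psmd7, Psmd8, Psmd11 and Psmd13 were not called.

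In the core particle both calls were alpha subunits. Psma3 had 98.62, 93.51, 101.38 and 93.34 CPM in vehicle F1, F2, M4 and M5, against 134.23, 142.94, 125.28 and 115.32 in wild type M1, M2, F3 and F4. All vehicle libraries were below all wild-type libraries, and the log2 fold change was -0.42 ± 0.09 (adjusted p = 0.0056), the smallest adjusted p of the 41 genes in this comparison. With the GC trend removed it was -0.06 (adjusted p = 0.64). Psma2 was lower (-0.26 ± 0.08, adjusted p = 0.028), with 79.77 to 88.41 CPM in vehicle and 89.51 to 105.86 in wild type, and had a positive value of 0.15 with the GC trend removed. None of the 7 beta genes was called. Outside both particles Psme4, a large activator that binds the core in nuclei, was lower. It had 89.01, 95.44, 93.94 and 93.71 CPM in vehicle F1, F2, M4 and M5, against 120.07, 122.40, 146.73 and 95.33 in wild type M1, M2, F3 and F4, a log2 fold change of -0.38 ± 0.11 (adjusted p = 0.020). None of the assembly chaperones was called, with log2 fold changes between -0.27 (Psmd5) and 0.17 (Psmd9).

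By single libraries, 6 genes (Psma2, Psma3, Psmd7, Psmd12, Psmd14 and Psmg2) were lower in every vehicle library than in every wild-type library and 0 were higher, where 8.35% and 8.54% of all genes tested showed such a lack of overlap. Without wild type F4, 12 genes were lower and 11 higher in this sense, where all genes gave 27.3% and 28.4%. The test without F4 called 19 of 41 genes, 11 higher and 8 lower, against 55.6% of all genes (28.5% higher and 27.1% lower). The genes called higher then included the beta subunits Psmb4 (0.58), Psmb6 (0.46), Psmb7 (0.40) and Psmb3 (0.20). Without wild type M1, M2 or F3 the number of calls was 4, 3 and 4, against 17.4%, 18.0% and 16.8% of all genes. It was 3 without vehicle F1 (18.5% of all genes), 7 without vehicle F2, whose expression went against its labelled sex (30.6%), and 5 without vehicle M4 (25.3%). Psma3, Psmc6 and Psmd12 were called in 13 of 13 fits that left out 1 library.

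The direction of these differences went with the base composition of the transcripts. Of the 41 genes 18 had a GC content below the median of all genes tested (49.2%) and 23 above it. All 7 genes lower in vehicle were GC-poor and both higher genes were GC-rich. The median log2 fold change was -0.14 for GC-poor and 0.12 for GC-rich members, against -0.26 and 0.27 over all genes. Across the 41 genes the fold change correlated with GC content at r = 0.54, and across all genes at r = 0.46. These correlations are across genes, which share libraries and are not independent replicates. Removing a cubic trend with GC content from each library turned the correlation over the members to -0.53, so the removal went past a flat line for these genes. It left 8 of 41 calls (Psma4 and Psmd11 higher, and Psmb5, Psma7, Psmd12, Psmc3, Psmd8 and Psmd1 lower), against 19.4% of all genes (7.77% higher and 11.6% lower). Psmd12 and Psmd1 were called both with and without that removal.

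The second comparison asked the same of retinas from TMB-treated Rpe65-/- mice, with the wild-type libraries of the first comparison as shared controls. 1 of 41 genes was called, Psmb5, which was lower, against 9.53% of all genes tested (4.51% higher and 5.02% lower). The median log2 fold change of the 41 genes was -0.07 and 32 of them were negative, against a median of -0.0027 over all genes. At an unadjusted p under 0.05 there were 7 of 41 (17.1%), against 25.9% of all genes. By single libraries 1 gene (Psmb5) was lower in every TMB library than in every wild-type library and 0 were higher, against 5.06% and 5.24% of all genes.

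Psmb5, the chymotrypsin-like subunit and the main target of proteasome inhibitors, had 14.02, 14.50, 15.85, 14.94 and 15.81 CPM in TMB F1, F3, F4, M5 and M6. It had 22.69, 18.21, 19.29 and 20.90 CPM in vehicle F1, F2, M4 and M5, and 21.43, 20.04, 19.67 and 32.90 in wild type M1, M2, F3 and F4. The TMB libraries were below all others, and wild type F4 was the highest. The log2 fold change was -0.64 ± 0.14 for TMB against wild type (adjusted p = 0.0098), -0.21 ± 0.15 for vehicle against wild type (adjusted p = 0.27) and -0.43 ± 0.14 for TMB against vehicle (unadjusted p = 0.0080, adjusted p = 0.25). Without F4 the first value was -0.44 (adjusted p = 0.0023). It was called in 13 of 14 other settings and in 13 of 13 fits that left out 1 library.

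The setting in which the call was lost concerns a copy of the gene. Gm3375, a processed pseudogene that was looked at after its values were seen, lies at chr7:3181093-3181888 on the plus strand of GRCm38. It holds the whole coding sequence of Psmb5 without introns. Of 795 aligned bases 787 were identical, with 8 mismatches, all in the 792 coding bases, and 1 inserted base. Psmb5 lies at chr14:54614119-54618022 on the minus strand. The pair of windows below shows 120 bases of a coding exon of Psmb5 (chr14:54616633-54616752, minus strand) and the matching bases of Gm3375 (chr7:3181361-3181480, plus strand), with the 3 differing bases in capitals, since these are the letters by which a read can be given to one or the other.
Psmb5: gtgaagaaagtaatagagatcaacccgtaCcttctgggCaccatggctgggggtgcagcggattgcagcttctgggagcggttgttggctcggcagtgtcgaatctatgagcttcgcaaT
Gm3375: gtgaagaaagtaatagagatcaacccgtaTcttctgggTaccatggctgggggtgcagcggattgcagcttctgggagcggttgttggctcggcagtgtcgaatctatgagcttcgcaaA

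Gm3375 was counted almost only in the knockout groups. It had 160, 278, 266, 216 and 186 counts in TMB F1, F3, F4, M5 and M6 and 421, 297, 321 and 442 in vehicle F1, F2, M4 and M5, against 3, 3, 3 and 10 in wild type M1, M2, F3 and F4. The difference was called in both groups (adjusted p = 1.1e-08 in TMB and 2.7e-09 in vehicle, edgeR quasi-likelihood test), and 3 of the wild-type libraries were at the 3-count floor. Of the counts of both genes together, Gm3375 took 44.6% to 57.6% in TMB and 52.0% to 56.6% in vehicle libraries, against 0.926% to 2.09% in wild type. The sum of Psmb5 and Gm3375 was 25.47, 34.17, 32.13, 29.09 and 28.53 CPM in TMB F1, F3, F4, M5 and M6. It was 47.51, 37.95, 41.81 and 48.15 CPM in vehicle F1, F2, M4 and M5, and 21.66, 20.22, 19.87 and 33.60 in wild type M1, M2, F3 and F4. The order of the groups thus turned, with all vehicle libraries above all wild-type libraries. With the counts of such copies added to their genes, Psmb5 had a log2 fold change of 0.33 ± 0.15 for TMB against wild type (adjusted p = 0.18) and of 0.88 ± 0.16 for vehicle against wild type (adjusted p = 0.0018). TMB against vehicle then gave -0.55 ± 0.15 (adjusted p = 0.25). In that setting 0 of 41 genes were called for TMB against wild type (9.5% of all genes) and 10 for vehicle against wild type (34.0%). A read that spans none of the differing bases fits both genes equally, and the part of the copy in the lower Psmb5 count was not tested. Rpe65 genotype and strain background cannot be told apart in these groups, and whether the sequence of Psmb5 or Gm3375 differs between the lines was not tested, which limits what the Psmb5 fold changes and the sums measure. The other 7 such copies, of 6 further members, held 0 to 34 counts per library, and no other member changed direction against wild type when they were added.

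The other catalytic subunits were not called against wild type in either group. Psmb6 had 67.68, 61.05, 64.13, 60.86 and 68.84 CPM in TMB F1, F3, F4, M5 and M6. It had 81.52, 65.33, 75.21 and 84.16 CPM in vehicle F1, F2, M4 and M5, and 56.79, 59.98, 50.68 and 90.63 in wild type M1, M2, F3 and F4. F4 was again the highest library, and the 3 other wild-type libraries were below all TMB and all vehicle libraries. The log2 fold change was -0.00022 ± 0.14 for TMB against wild type (adjusted p = 0.999) and 0.25 ± 0.14 for vehicle against wild type (adjusted p = 0.19). Psmb7 had 38.56, 44.64, 39.53, 35.96 and 40.44 CPM in TMB F1, F3, F4, M5 and M6. It had 53.05, 40.87, 50.86 and 54.25 CPM in vehicle F1, F2, M4 and M5, and 35.82, 40.51, 36.85 and 56.12 in wild type M1, M2, F3 and F4. TMB and the 3 other wild-type libraries overlapped, and vehicle F2 was the lowest vehicle library. The log2 fold change of Psmb7 was -0.09 ± 0.13 for TMB against wild type (adjusted p = 0.69) and 0.23 ± 0.14 for vehicle against wild type (adjusted p = 0.18).

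For the genes called in vehicle, the values in TMB are given against the same wild-type controls, which both comparisons share. Psmc6 was at 173.78, 119.34, 139.10, 155.25 and 162.92 CPM in TMB F1, F3, F4, M5 and M6, with a log2 fold change of -0.32 ± 0.13 against wild type (adjusted p = 0.15). Psma3 was at 98.05 to 125.27 CPM (-0.26 ± 0.09, adjusted p = 0.070), Psmd12 at 55.11 to 66.68 CPM (-0.23 ± 0.09, adjusted p = 0.13) and Psme4 at 100.60 to 130.14 CPM (-0.08 ± 0.11, adjusted p = 0.68). Psma2 was at 77.68 to 97.30 CPM (-0.23 ± 0.08, adjusted p = 0.076), Psmd1 at 117.43 to 144.23 CPM (-0.17 ± 0.09, adjusted p = 0.25) and Psmd14 at 58.63 to 67.61 CPM (-0.10 ± 0.08, adjusted p = 0.43). Psmd3 was at 79.05 to 96.41 CPM (0.25 ± 0.12, adjusted p = 0.21) and Psmc4 at 73.19 to 79.07 CPM (0.20 ± 0.09, adjusted p = 0.20). Whether the values of the 2 knockout groups differed is the subject of the third comparison. Without wild type F4, 11 of 41 genes were called in TMB, 5 higher (Psmd3, Psmc4, Psmb4, Psmb2 and Psmb3) and 6 lower (Psmc6, Psmb5, Psmd12, Psma2, Psma3 and Psmd1), against 38.0% of all genes (19.6% higher and 18.4% lower). By single libraries 6 were then higher and 7 lower without overlap, against 17.8% and 18.5% of all genes.

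**Figure D1:**
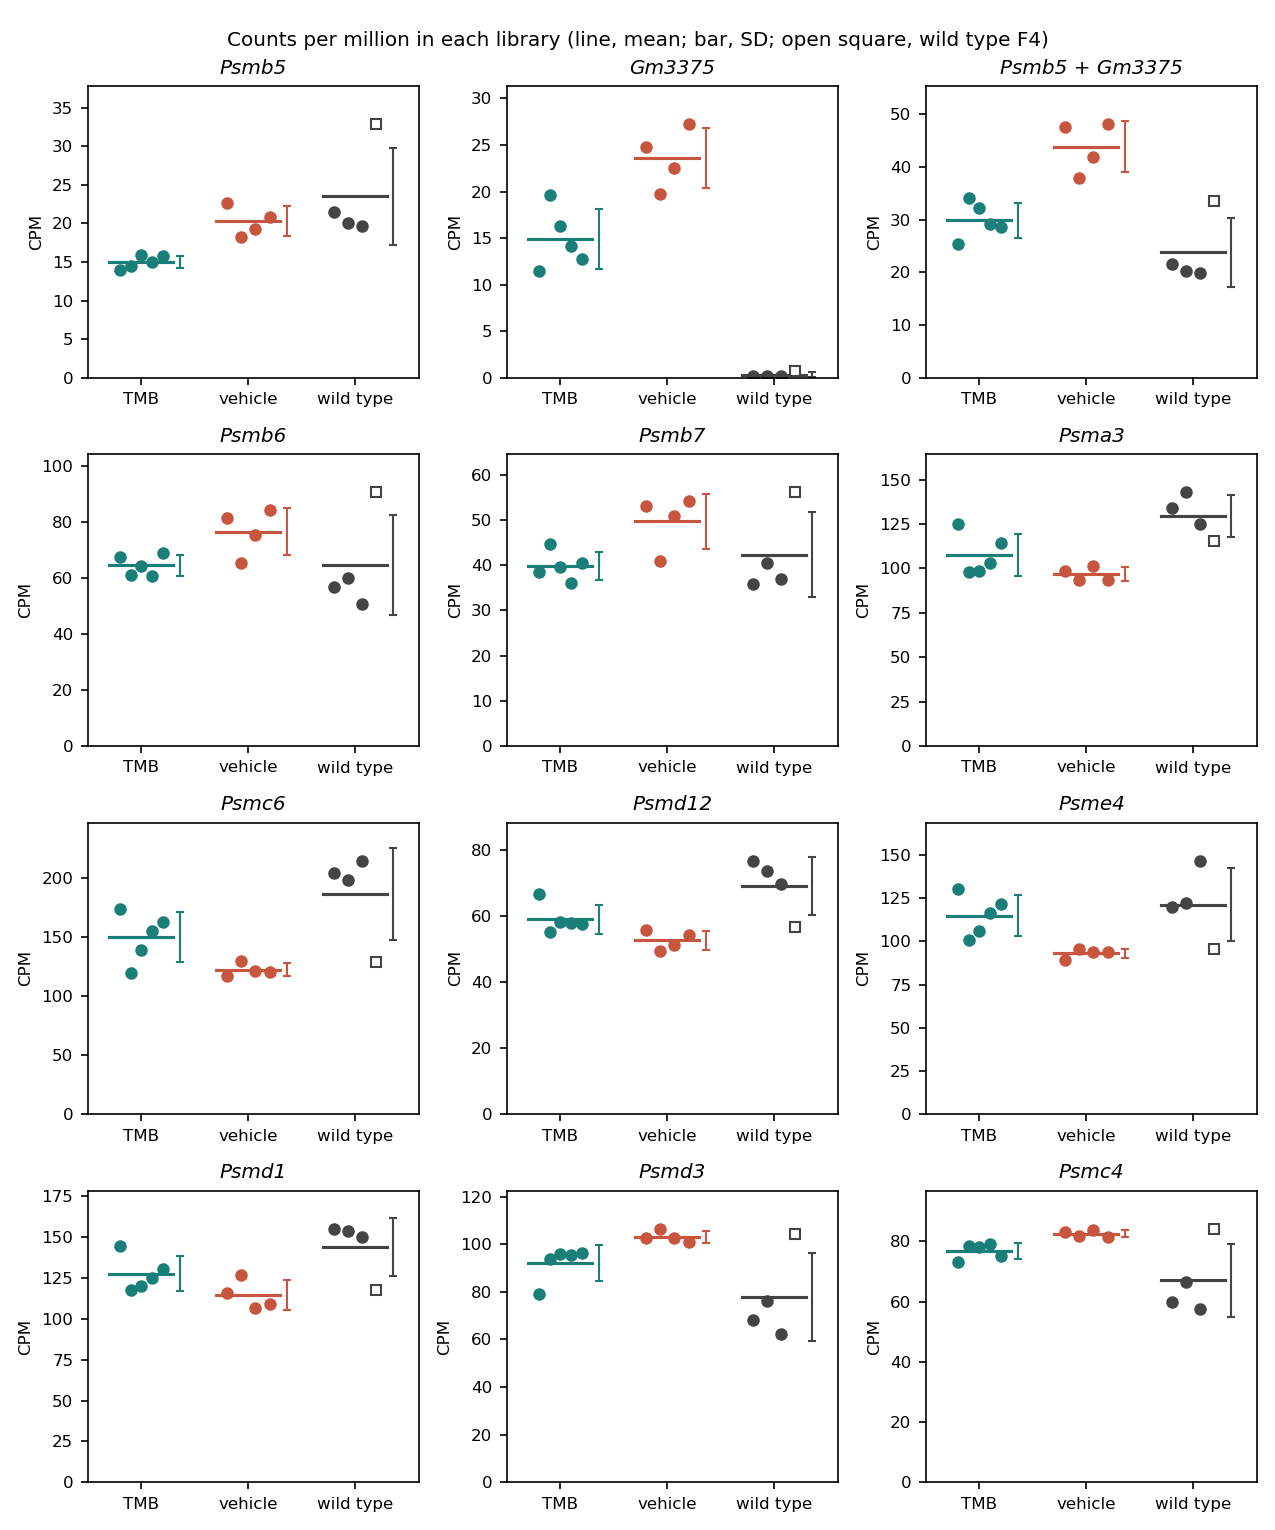
CPM in each library for the catalytic subunits, for Gm3375 and its sum with Psmb5, and for called genes. Each point is a library, lines are group means, bars are SD (5 TMB, 4 vehicle, 4 wild type), and the open square is wild type F4. Gm3375 lies at 11.45 to 27.25 CPM in the knockout groups and at 0.19 to 0.70 CPM in wild type.

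The third comparison asked whether the drug diet moved proteasome genes within Rpe65-/- retinas. By the edgeR test 0 of 41 genes were called, as were 0.0% of all genes tested, and DESeq2 (0.41% of all genes) and limma-trend (0.0%) also called 0 of the 41. At an unadjusted p under 0.05 there were 7 of 41 (17.1%), against 18.3% of all genes. 2 of these 7 were higher in TMB (Psme4 by 0.31 ± 0.11 and Psmc6 by 0.30 ± 0.13) and 5 were lower (Psmb5, Psmb7, Psmc1, Psmd2 and the chaperone Psmg4), with adjusted p values between 0.25 and 0.27. By single libraries Psmd14 and Psme4 were higher in every TMB library than in every vehicle library (against 6.2% of all genes), and Psmb4, Psmb5, Psmc1, Psmc4, Psmd2 and Psmd3 were lower (against 8.05%). Psmd14 had 67.61, 59.28, 61.07, 58.63 and 64.87 CPM in TMB F1, F3, F4, M5 and M6, against 55.00, 58.49, 53.67 and 55.55 in vehicle F1, F2, M4 and M5. Psmd2, the ubiquitin-binding scaffold of the base, had 163.19, 156.55, 167.99, 162.46 and 155.39 CPM in TMB F1, F3, F4, M5 and M6, against 189.34, 185.49, 173.43 and 181.26 in vehicle F1, F2, M4 and M5 (-0.18 ± 0.07, adjusted p = 0.25).

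The absence of calls depended on the libraries that entered the estimate of the spread, although no wild-type library enters these fold changes. With only the TMB and vehicle libraries fitted, 8 of 41 genes were called, 2 higher and 6 lower, against 14.7% of all genes (7.11% higher and 7.6% lower). With wild type F4 left out 8 were called as well, against 16.0% of all genes (8.02% in each direction). These were Psmc6 (0.30) and Psme4 (0.30), higher in TMB, and Psmb5 (-0.43), Psmb7 (-0.32), Psmc1 (-0.27), Psmb4 (-0.25), Psmb6 (-0.25) and Psmd2 (-0.18), lower in TMB, with adjusted p values of 0.0098 to 0.043. All 3 catalytic subunits were among them. With the GC trend removed 0 of 41 were called (0.012% of all genes), and with F4 left out as well 6 of 41 (2.19%). These 6 were lower in TMB and held Psmb7 (-0.57) and Psmc1 (-0.27) of the genes above, with Psma2 (-0.27), Psma4 (-0.26), Psmc2 (-0.25) and Psmd11 (-0.30). Psmb5 (-0.22) and Psmb6 (-0.185) were not called there (adjusted p = 0.18 each), and Psmc6 was at -0.06 (adjusted p = 0.63). With the counts of Gm3375 added, Psmb5 differed by -0.55. The fold changes of the 41 genes correlated with GC content at r = -0.47 (-0.54 across all genes), and with that trend removed the median difference was -0.08 for GC-poor and -0.01 for GC-rich members.

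The balance of the particles differed little between group means, and the size of the difference depended on the setting. The mean log2 CPM of the 14 core genes minus that of the 15 regulatory genes was -0.547 ± 0.026 in TMB, -0.479 ± 0.061 in vehicle and -0.539 ± 0.044 in wild type (SD, n = 5, 4 and 4), and -0.561 ± 0.009 in wild type without F4. It ran between -0.588 and -0.523 in TMB libraries. In vehicle F1, F2, M4 and M5 it was -0.445, -0.569, -0.464 and -0.439, and in wild type it ran between -0.567 and -0.474, so that vehicle F2 lay apart from the other vehicle libraries and near the values of the other groups. Without Psmb5, Psmb6 and Psmb7 in the core the means were -0.325 in TMB, -0.322 in vehicle and -0.356 in wild type. With all core genes, vehicle minus wild type was 0.060 and TMB minus vehicle -0.068. These differences were 0.082 and -0.079 with the GC trend removed, and 0.090 and -0.097 without vehicle F2. The core values use the Psmb5 count without Gm3375. Within the core, beta minus alpha genes gave -0.462 ± 0.074 in TMB and -0.309 ± 0.047 in vehicle, against -0.563 ± 0.254 in wild type. That wild-type mean joined -0.195 in F4 and -0.686 ± 0.081 in the 3 others. After removal of the trend with GC content the means were -0.450 in TMB, -0.416 in vehicle and -0.472 in wild type. These measures over members are descriptions, with no test.

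**Figure D2:**
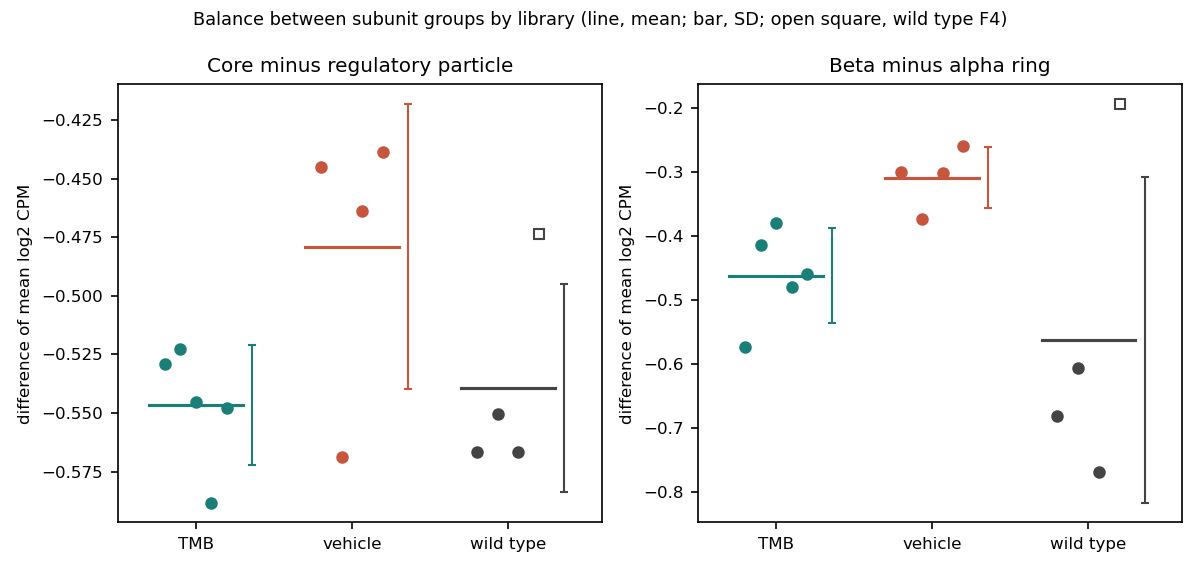
Mean log2 CPM of core minus regulatory genes and of beta minus alpha genes in each library. Points are libraries, lines are group means, bars are SD, and the open square is wild type F4, which lies at -0.474 and -0.195.

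Genes that work with the proteasome were tested in the same fit. Here and in the next paragraph their results are given only with wild type F4 included and the GC trend not removed. F4 lay within the vehicle range for Usp14 (58.99 CPM, other wild-type libraries 85.41 to 91.57). The same held for Ube3a (105.22, others 222.40 to 264.52) and Zfand5 (165.19, others 223.51 to 240.73), while for Uchl5 it lay just above that range. Of 19 proteasome-associated factors 6 were called in vehicle against wild type, 1 higher and 5 lower (31.6% against 33.9% of all genes), with a median log2 fold change of -0.12. The 1 higher was Adrm1 (0.48 ± 0.16, adjusted p = 0.030), with 50.64 to 57.95 CPM in vehicle. In wild type Adrm1 had 57.45 CPM in F4 and 30.25 to 37.20 in the other libraries. Uchl5, a deubiquitinase bound to the regulatory particle, had 20.77 to 25.39 CPM in vehicle and 27.78 to 54.04 in wild type (-0.84 ± 0.17, adjusted p = 0.0037). Usp14, the other deubiquitinase bound there, had 54.93 to 60.12 CPM in vehicle and 58.99 to 91.57 in wild type (-0.48 ± 0.12, adjusted p = 0.0098). The ubiquitin ligase Ube3a (-0.91 ± 0.20, adjusted p = 0.0064) and Zfand5, an activator of degradation (-0.44 ± 0.11, adjusted p = 0.0091), were lower as well. In TMB against wild type 0 of these 19 were called, against 9.53% of all genes, with -0.47 ± 0.16 for Uchl5 (adjusted p = 0.073).

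Of 12 genes of the transcription regulation of the proteasome 3 were called in vehicle, where 33.9% of all genes were called. Stat3, a transcription factor of cytokine signalling, was higher in both knockout groups. It had 111.03, 120.69, 139.04, 114.97 and 117.01 CPM in TMB F1, F3, F4, M5 and M6 and 113.94, 115.11, 133.65 and 110.67 in vehicle F1, F2, M4 and M5, against 64.68, 62.67, 60.58 and 72.81 in wild type M1, M2, F3 and F4. The log2 fold change was 0.89 ± 0.09 in TMB (adjusted p = 9.0e-06) and 0.86 ± 0.09 in vehicle (adjusted p = 2.0e-05), and F4 did not stand among the knockout libraries for this gene. Foxo4 was higher in vehicle by 0.50 ± 0.18 (adjusted p = 0.044), and Nfe2l2, the regulator of the antioxidant response, was lower in vehicle (-0.31 ± 0.12, adjusted p = 0.048). Of 6 ubiquitin and ubiquitin-activating genes Uba6 was called, lower in vehicle (-0.61 ± 0.13, adjusted p = 0.0057), which is 16.7% of the list against 33.9% of all genes. Wild type F4 lay within the vehicle range for Foxo4 (24.41 CPM, other wild-type libraries 13.36 to 14.30). It did so for Nfe2l2 (32.34, others 34.50 to 40.88) and Uba6 (38.51, others 61.29 to 65.14) as well. None of the 3 immunoproteasome genes was called in any comparison. Psmb10 had 7.21 to 8.35 CPM in TMB, 7.71 to 11.20 in vehicle and 3.71 to 11.57 in wild type, and Psmb8 and Psmb9 stayed at or below 2.38 CPM in every library.

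Promoters were read from RefSeq on GRCm38.p6 as the 250 bases before and 50 after each start, and 34 of the 41 genes had at least 1 such window, 37 in all. The core of the antioxidant response element, TGACNNNGC on either strand, is bound by factors of the family that raises proteasome genes when the protease is inhibited. It was found in 6 of 37 windows (16.2%), of Psmb5, Psmb6, Psmc6, Psmd9, Psmd12 and Psme4, against 12.4% of 32851 windows of all genes. The same core preceded by A was found in 0 of 37 windows, against 2.13% of all windows. The CCAAT box was found in 10 of 37 windows (27.0%), against 37.4% of all windows, and in 6 of 12 windows of core genes. A match is a description of the letters and not a site of binding. The windows of the 4 genes that both held the first motif and were called in a comparison are shown, with the match in capitals. They are Psmb5 (chr14:54617946-54618245, minus strand), Psmc6 (chr14:45329574-45329873, plus strand), Psmd12 (chr11:107479278-107479577, plus strand) and Psme4 (chr11:30771525-30771824, plus strand). All 4 were called lower, Psmb5 in TMB and the others in vehicle, as were 8 of the 10 members called, and the Psmb5 value was positive with the copies added. Since these windows were chosen by their calls, the shared direction is not a result about the motif. The other genes with the motif, Psmb6 (0.25) and Psmd9 (0.17), had positive log2 fold changes in vehicle against wild type and were not called. With the GC trend removed, Psmc6 (-0.10) and Psme4 (-0.13) were not called in vehicle against wild type.
Psmb5: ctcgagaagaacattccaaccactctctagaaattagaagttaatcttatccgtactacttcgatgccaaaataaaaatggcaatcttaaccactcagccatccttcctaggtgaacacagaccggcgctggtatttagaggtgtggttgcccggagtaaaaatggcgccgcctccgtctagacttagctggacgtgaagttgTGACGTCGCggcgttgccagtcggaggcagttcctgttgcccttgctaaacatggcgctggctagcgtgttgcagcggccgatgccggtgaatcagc
Psmc6: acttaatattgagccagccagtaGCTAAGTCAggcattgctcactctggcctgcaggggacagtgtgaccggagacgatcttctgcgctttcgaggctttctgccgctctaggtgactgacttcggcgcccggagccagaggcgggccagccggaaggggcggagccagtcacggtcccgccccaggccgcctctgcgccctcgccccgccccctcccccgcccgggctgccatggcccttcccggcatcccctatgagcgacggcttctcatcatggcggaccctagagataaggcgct
Psmd12: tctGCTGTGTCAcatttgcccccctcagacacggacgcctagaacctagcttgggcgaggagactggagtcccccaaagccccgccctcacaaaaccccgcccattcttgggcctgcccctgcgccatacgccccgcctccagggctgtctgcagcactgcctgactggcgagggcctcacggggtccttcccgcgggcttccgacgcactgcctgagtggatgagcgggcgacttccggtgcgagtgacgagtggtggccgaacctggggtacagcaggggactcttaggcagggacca
Psme4: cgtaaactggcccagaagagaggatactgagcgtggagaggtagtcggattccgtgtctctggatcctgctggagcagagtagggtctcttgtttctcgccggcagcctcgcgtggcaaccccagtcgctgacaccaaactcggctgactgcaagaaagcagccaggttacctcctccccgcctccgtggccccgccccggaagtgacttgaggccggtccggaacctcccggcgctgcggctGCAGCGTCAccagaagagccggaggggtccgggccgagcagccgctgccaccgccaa

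Some values rest on reads that neighbouring genes could share, since no source used here says that counting used strand. Psma3, Psmd1, Psmd3 and Psme4 overlap genes on the other strand (3110056K07Rik, Htr2b, Gm12356 and Gm12103), as do Psmd13 and Sirt3 and Psmc3 and Slc39a13. Without strand, reads of such a pair cannot be told apart where the genes overlap. Of the called genes, Psma2 and Psmd14 also overlap Gm25444 and Gm22403 on the other strand. On the same strand, Psma2 overlaps AW209491, Psmd1 overlaps Gm22786 and Gm37914, Psmd12 overlaps Gm11722 and Psmd14 overlaps Gm25966. Strand would not tell reads of these last pairs apart.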

How the data were processed

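The authors aligned reads with STAR to GRCm38 after quality control with FastQC and trimming with Trimmomatic, and counted them with HTSeq. The deposited table holds raw counts per nuclear gene and library, not pooled. No source used here states whether counting was strand-specific. Log2 fold changes and adjusted p values of the authors' own DESeq2 comparisons in the table were not used, and neither were 4 further per-sample columns, which repeat the wild-type libraries. Floors cover counting error only, while SD and SE values include the spread between libraries.

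All genes were tested in 1 fit of the 13 libraries with edgeR 4.0.16 in R 4.3.3 (quasi-likelihood F test, TMM normalization, filterByExpr by group), with p values adjusted over 16782 genes and a threshold of 0.05. CPM values use TMM-scaled library sizes. Each SE was derived from the log2 fold change and its F value. The scripts were tested on simulated data. Also run were limma-trend (limma 3.58.1, prior count of 2), DESeq2 1.42.0, edgeR with DESeq2 size factors, no filter, a mean count of at least 100, labelled sex as a covariate, only the 2 groups compared, the library number as a block, a cubic GC trend of each library removed (GENCODE M21 transcripts, 99.6% of genes), and leaving out libraries. Chosen after seeing the data were the GC trend with wild type F4 left out, the GC content of the longest coding transcript, the beta minus alpha measure, and adding the counts of pseudogene copies that share at least 5% of a member's 50-base stretches (8 copies of 7 genes).

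Named were all members, with library values for the catalytic subunits, for the 3 called genes with the smallest adjusted p and the one with the largest change per comparison and direction, and for genes with a library set apart by Dixon's ratio, and of each related list up to 4 genes with the smallest adjusted p. Adrm1 was named outside these rules, as the 1 proteasome-associated factor called higher. Members, lists and rules were chosen with earlier results of these data known. Labels and tables hold 4 wild-type libraries while the design text counts 3, and all 4 were used. A list of libraries deposited with the table leaves out wild type M1 and gives vehicle F1 the wild-type strain, while its Rpe65 count of 6 was that of the knockout groups. Coordinates are those of the deposited table and GENCODE M21. Promoter sequences are from RefSeq (GRCm38.p6), and the pair of coding windows is from GENCODE M21 transcripts.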

Additional observations from a re-analysis of the deposited data

Results flagged for a closer look

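In 13 of 138 groups of libraries tested, 1 library lay far from the rest of its group by Dixon's ratio, a rule that chance alone meets in about 1 in 20 groups. The 138 groups reuse the same libraries and are not independent, so that rate gives no expected number here. In 8 of the 13 the library was wild type F4. It was high for Psmb5 (32.9 CPM, others 19.67 to 21.43), Psmc1 (118.83, others 75.46 to 82.47), Psmd2 (193.39, others 161.07 to 162.62), Psmd9 (32.27, others 22.97 to 24.53) and Psmg3 (6.31, others 3.99 to 4.06). It was low for Psma2 (89.51, others 103.48 to 105.86), Psmd1 (117.28, others 149.55 to 154.81) and Psmd5 (62.64, others 79.40 to 82.16).

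Among TMB libraries, F1 was high for Psmd12 (66.68 CPM, others 55.11 to 58.26) and Psmd13 (56.73, others 51.64 to 53.10) and low for Psmd3 (79.05, others 93.88 to 96.41), and F3 was low for the ATPase Psmc2 (73.29, others 79.17 to 81.34). Among vehicle libraries, M4 was low for Psmd8 (85.52, others 100.68 to 102.80). Each value is in CPM, and what sets these libraries apart was not tested.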

How the results depend on the processing

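For vehicle against wild type (9 of 41 genes called) the count was 3 with only the 2 groups compared (17.7% of all genes), 20 without wild type F4 and vehicle F2 (55.9%), 17 with the GC trend removed and F4 left out (27.5%), and 3 to 19 without 1 library (19 without F4, 55.6%). For TMB against wild type (1 called) it was 4 by DESeq2 (11.6% of all genes), 2 with a mean count of at least 100 (11.5%), 5 with the GC trend removed (15.8%), 4 with the coding-transcript GC trend removed (15.7%), 0 with pseudogene copies added (9.5%), 12 without F4 and vehicle F2 (39.1%), 10 with the GC trend removed and F4 left out (19.2%), and 1 to 11 without 1 library (11 without F4, 38.0%; 3 without TMB F1, 8.91%; 2 without wild type M2, 5.55%). For TMB against vehicle (0 called) it was 8 with only the 2 groups compared (14.7%), 9 without F4 and vehicle F2 (20.2%), 6 with the GC trend removed and F4 left out (2.19%), and 0 to 8 without 1 library (8 without F4, 16.0%). Core minus regulatory genes, TMB minus vehicle, gave -0.00232 without Psmb5, Psmb6 and Psmb7 in the core. The regulatory set holds none of Psmd5, Psmd9 and Psmd10, so leaving them out changed nothing.

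Among values called with or without the change of setting, directions turned in vehicle against wild type for Psma2 (0.15) and Psmd14 (0.0042) with the GC trend removed, for Psma2 (0.17), Psmd14 (0.0222) and Psmd3 (-0.0446) with that of the coding transcript, for Psma1 (0.22), Psma2 (0.28), Psma3 (0.0456), Psmc2 (0.41), Psmd10 (0.41) and Psmd14 (0.0688) with the GC trend removed and F4 left out, and for Psmb5 (0.88) with copies added. They turned in TMB against wild type for Psmb6 (0.21) without F4 and vehicle F2, Psmb7 (0.35) with the GC trend removed and F4 left out, and Psmb5 (0.33) with copies added, and in TMB against vehicle for Psma2 (-0.27) with the GC trend removed and F4 left out. Values called in neither fit turned as well, and with the GC trend removed 11 of 41 genes in all changed sign in vehicle against wild type, 7 in TMB against wild type and 14 in TMB against vehicle (among them Psmc6 at -0.0538). The cause was not tested. Deviations of same-numbered libraries correlated at -0.17 to 0.25. These correlations cannot decide whether library numbers paired the mice, since the groups are small and the labels do not give the relation between animals. With the number as a replicate block 3 genes were called in vehicle against wild type (13.3% of all genes), and with the block and the GC trend removed 2 in TMB against wild type (9.66%), where Psma2 turned to 0.10 in vehicle against wild type.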
